A study of Mus musculus with 11 samples.

Results

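Tpm1, Ttn, Actn2, Pdlim5, Sorbs2 and Tln1 code for proteins of the sarcomere, the Z-disc and the adhesion sites of heart muscle. They were chosen by name, as the spots that the platform annotation assigns to these 6 symbols. That is 9 spots for 6 genes, of 8106 named genes and 12097 features measured in all. The choice was made with the ratios of these genes in the same group comparisons known, so their values are given as a description. Where the text says that some of them passed a threshold, this only places them among all features. It is not a test of these genes.

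The RNA came from the right and left ventricles and septum of 12 male mice, about 60 weeks old, of the TG1306/1R line (strain C57/BL6 per the labels), which overexpresses angiotensinogen, the precursor of angiotensin II, in the heart. There were 4 mice in each of 3 groups. Dil mice were heterozygous carriers of the transgene with a dilated heart, Hyp mice were heterozygous carriers with concentric hypertrophy, and WT mice were littermates without the transgene (-/-). No group received a treatment. Besides genotype, the shape of the chambers, the cardiac weight index and hypertrophic marker expression decided whether a carrier was put in Dil or Hyp, so neither the index nor those markers are independent outcomes. Which promoter drives the transgene is not given in the sources used here. That index averaged 8.23 ± 0.665 mg/g for Dil mice, 5.54 ± 0.180 mg/g for Hyp mice and 4.53 ± 0.287 mg/g for WT mice (SD, n = 4 each). The labels of Hyp3 give 2 different indices, 5.3 and 5.6 mg/g, and their mean was used.

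Each of 11 cDNA arrays with 2 colours set 2 mice of the same number against each other, and mice of 1 number are called a set here. Of these arrays 3 compared Dil with WT (sets 1, 3 and 4), 4 compared Dil with Hyp and 4 compared Hyp with WT. None of the 11 arrays compared Dil with WT in set 2. The values are log ratios, taken as log2 of Cy5 over Cy3 and turned so that the first-named group is on top. This direction is only likely. Its basis is that Agt, the overexpressed gene, came out higher in both carrier groups (2.17 in Dil minus WT and 2.12 in Hyp minus WT), as did Nppb, a hypertrophic marker (2.53 in Dil minus WT). With the opposite direction every sign below would turn. The ratios carry no absolute level, so neither the tissue nor the abundance of 1 gene against another could be checked from them. In whole ventricle, fewer cells of a type and less RNA per cell cannot be told apart. Spot brightness was not used here. The precision of the group comparisons is limited by the 4 mice in each group, which the 11 arrays share.

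The sarcomere is the contractile unit of muscle, in which myosin filaments pull on actin filaments that are anchored at the Z-disc. Titin spans from the Z-disc to the middle of the sarcomere and acts as a molecular spring. At the cell border the outermost Z-discs are tied to the extracellular matrix through costameres, where integrins bind talin and talin binds actin, and the cells are joined end to end at intercalated discs. Z-disc and costamere proteins carry mechanical load and are sites of signalling in hearts under strain, and mutations in several sarcomere genes are known to cause inherited cardiomyopathy.

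The genes of the Z-disc and the adhesion sites had ratios above 0 in dilated hearts, and the filament genes lay near 0 or below it. In Dil minus WT the fitted log2 changes were 0.72 ± 0.12 for Sorbs2, 0.69 ± 0.16 for Pdlim5, 0.51 ± 0.08 for Tln1 and 0.46 ± 0.18 for Actn2 (SE, 4 mice per group). These are 1.65-fold, 1.62-fold, 1.42-fold and 1.37-fold. Each SE comes from the fit over arrays, with 1 variance ratio for mice shared by all features. It is not the spread among the mice of a group and can understate it. Ttn lay at 0.08 ± 0.07 and Tpm1 at -0.22 ± 0.10 on the same scale. In Dil minus Hyp these 4 genes also lay above 0, at 0.67 ± 0.11 for Sorbs2, 0.56 ± 0.15 for Pdlim5, 0.49 ± 0.08 for Tln1 and 0.31 ± 0.17 for Actn2. In Hyp minus WT their values were close to 0, from 0.02 ± 0.08 for Tln1 to 0.14 ± 0.17 for Actn2. The 3 comparisons share mice, so they are not independent of each other.

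**Figure D1:**
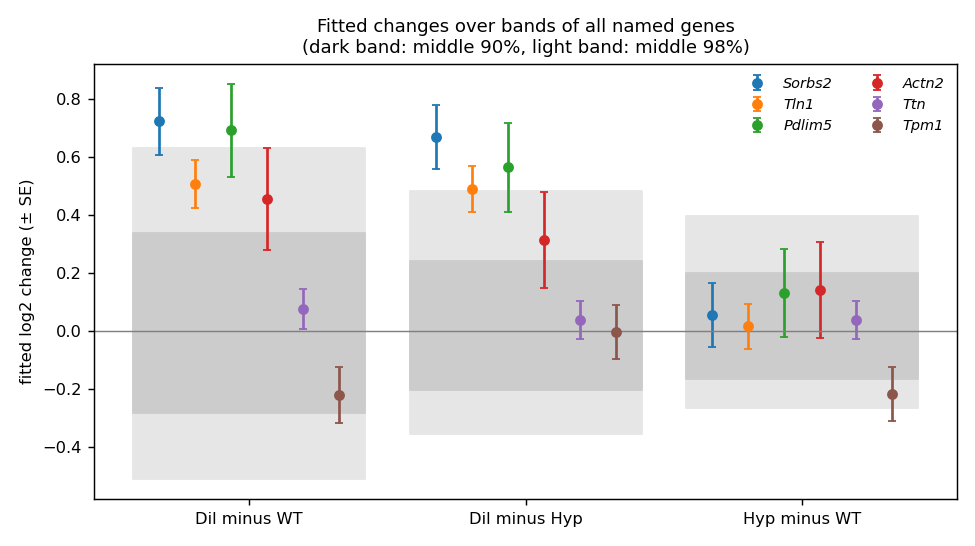
Fitted log2 change (vertical axis) of each of the 6 genes in the 3 comparisons, as points with bars of 1 SE. The grey bands hold the middle 90% and 98% of all 8106 named genes. Sorbs2 (0.72) and Pdlim5 (0.69) lie above the light band in Dil minus WT, and all genes but Tpm1 (-0.22) lie inside the dark band in Hyp minus WT.

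Among all features, 2.29% passed an adjusted p of 0.05 in either direction in Dil minus WT (277 features, limma with Benjamini-Hochberg adjustment), 1.04% higher and 1.25% lower. Of the 6 genes, Sorbs2 and Tln1 were among those higher. In order of p Pdlim5 was number 278, the first feature that did not pass, and it passed in 4 of 15 alternative settings. In Dil minus Hyp 0.190% passed (23 features), 0.157% higher and 0.0331% lower, and Sorbs2 and Tln1 were again among those higher. In Hyp minus WT 0% passed (0 features, limma), the lowest adjusted p was 0.683, and 551 features had an unadjusted p under 0.05. Since the genes were chosen with these comparisons known, nothing is read from their share or from which of them passed. The median of the 6 genes was 0.48 in Dil minus WT, 0.40 in Dil minus Hyp and 0.05 in Hyp minus WT, and the median of all features was 0.00 in each. On simulated data the fit behind these calls made more false calls than its threshold allows for. This limit holds for every adjusted p given here from that fit. The calls also depended on single sets and arrays. With the set number as a block, in which each set gives 1 value, 6 features passed in Dil minus WT and 0 in Dil minus Hyp, and 0 of the 6 genes passed in either. In Dil minus WT 121, 82, 0 and 12 features passed without set 1, 2, 3 or 4, and 3, 2, 0 and 0 of the 6 genes. In Dil minus Hyp 0, 15, 0 and 0 features passed without set 1, 2, 3 or 4, and 0 of the 6 genes in each case. Without the WT1 and Hyp1 array, whose displaced rows were put back, 0 of them passed in Dil minus Hyp and 2 in Dil minus WT, and from the direct arrays of a comparison alone 0 passed in either.

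All 4 genes with a change above 0.4 in Dil minus WT kept a positive value in each of the 15 alternative settings. The range was 0.57 to 0.83 for Sorbs2, 0.51 to 0.90 for Pdlim5, 0.39 to 0.61 for Tln1 and 0.35 to 0.69 for Actn2. The spot median and the filters on arrays could hardly move these values. For these genes the mean and median of spots are the same, and every array has a value. The other settings reuse the same arrays, so the kept sign is a description and not separate support.

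Tpm1 codes for alpha-tropomyosin, which lies along the actin filament and controls access of myosin to it. Its ratios were 0.06, -0.04 and -0.41 on the Dil minus WT arrays of sets 1, 3 and 4. They were -0.18, 0.01, -0.14 and 0.13 on the Dil minus Hyp arrays of sets 1 to 4, and 0.04, -0.39, -0.07 and -0.62 on the Hyp minus WT arrays. The lowest Hyp minus WT ratios were those of sets 2 and 4, the lowest of the 3 direct Dil minus WT ratios was that of set 4, and the Dil minus Hyp ratios took both signs. Fitted changes were -0.22 ± 0.09 in Hyp minus WT and -0.00 ± 0.09 in Dil minus Hyp. Tpm1 was the only one of the 6 genes below 0 against WT in both carrier groups, with 92.3% of the named genes as high or higher in Dil minus WT and 97.9% in Hyp minus WT.

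Ttn codes for titin. On the Dil minus WT arrays it stood at 0.27, 0.12 and 0.07 in sets 1, 3 and 4. On the Dil minus Hyp arrays it had -0.12, 0.06, 0.14 and -0.05 in sets 1 to 4, and on the Hyp minus WT arrays 0.21, -0.23, -0.01 and 0.05. These values scatter around 0 in both Dil minus Hyp and Hyp minus WT. With the smallest standard error of the 6 genes (0.07 in each comparison), Ttn had 30.4% of the named genes as high or higher in Dil minus WT. It has 1 spot, and which titin isoforms that clone binds was not tested.

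Actn2 codes for alpha-actinin-2, the protein that cross-links actin filaments in the Z-disc. Its Dil minus WT ratios were 0.70, 0.14 and 0.95 in sets 1, 3 and 4. Its Dil minus Hyp ratios were -0.26, 0.69, 0.30 and 0.04 in sets 1 to 4, and its Hyp minus WT ratios were 0.24, -0.22, 0.21 and -0.16. All 3 direct Dil minus WT arrays lay above 0, and the other arrays took both signs.

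Pdlim5 codes for a PDZ and LIM domain protein, also called ENH, which binds alpha-actinin and protein kinase C at the Z-disc. On the Dil minus WT arrays it had 0.33, 1.28 and 0.61 in sets 1, 3 and 4. On the Dil minus Hyp arrays it had -0.11, 0.43, 0.70 and 1.26 in sets 1 to 4, and on the Hyp minus WT arrays 0.30, 0.14, 0.17 and -0.07. The 7 arrays with a Dil heart hold only 4 Dil mice, so they are not independent. Of these arrays 6 lay above 0, and the exception was set 1 against Hyp, with Dil in Cy3. With the dye effect removed that array stood at 0.03.

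Sorbs2 codes for ArgBP2, an adaptor with SH3 domains that binds actin-associated proteins at Z-discs and stress fibres. Its Dil minus WT ratios were 0.53, 1.08 and 0.69 in sets 1, 3 and 4. The Dil minus Hyp ratios were 0.38, 0.28, 1.00 and 0.90 in sets 1 to 4, against Hyp minus WT ratios of 0.08, 0.19, 0.11 and -0.26. All 7 arrays with a Dil heart, from 4 Dil mice, lay above 0, and each array was higher than the highest Hyp minus WT array.

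Tln1 codes for talin-1, which joins integrins to the actin cytoskeleton. It stood at 0.65, 0.85 and 0.48 on the Dil minus WT arrays of sets 1, 3 and 4. The Dil minus Hyp arrays of sets 1 to 4 gave 0.09, 0.50, 0.37 and 0.74, and the Hyp minus WT arrays 0.13, -0.25, -0.01 and -0.07. Again all 7 arrays with a Dil heart, from the same 4 Dil mice, lay above 0. Before the dye effect was removed, set 1 in Dil minus Hyp (0.09, Dil in Cy3) lay within the range of the Hyp minus WT arrays. With the dye effect removed it was 0.23, and the highest Hyp minus WT array was 0.13.

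**Figure D2:**
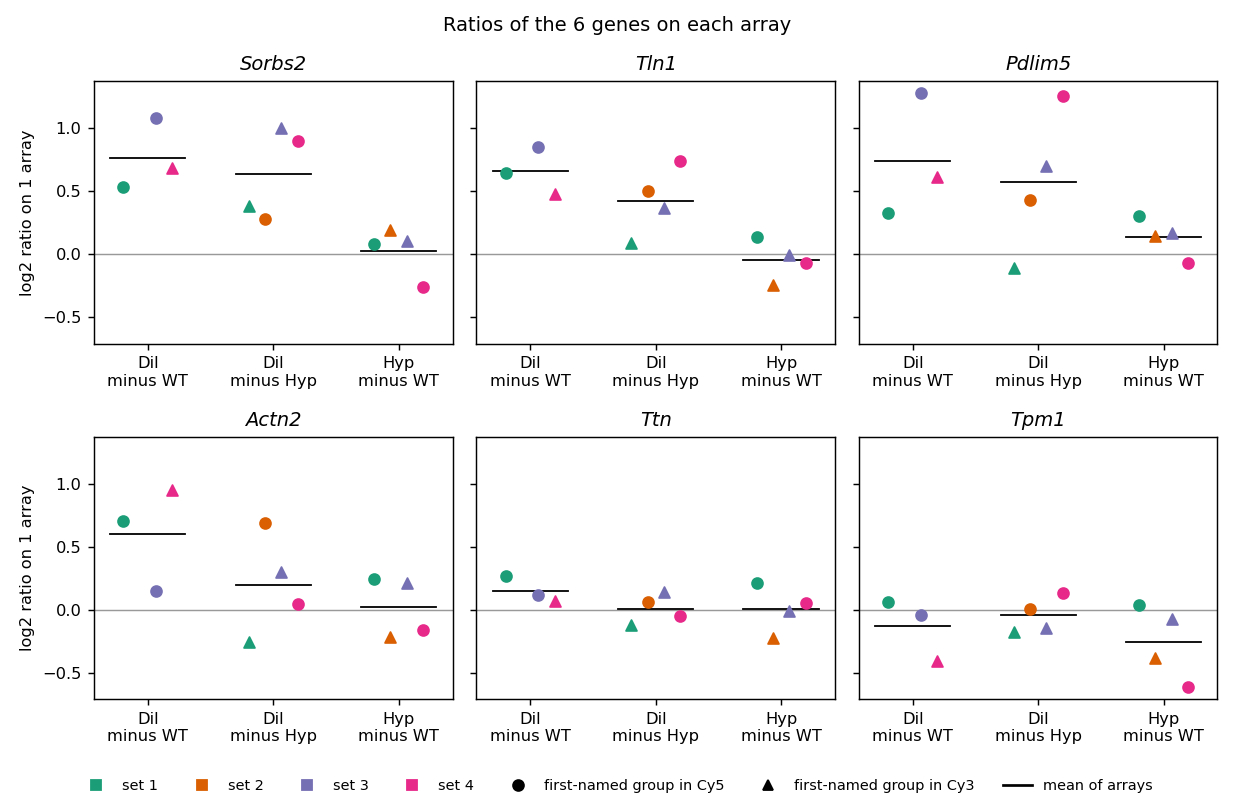
Log2 ratio on each single array (vertical axis) for the 6 genes in the 3 comparisons, with spots of a gene averaged. Colours mark the set, circles and triangles the dye of the first-named group, and black lines the mean over arrays. Sorbs2 and Tln1 lie above 0 on all 3 Dil minus WT and all 4 Dil minus Hyp arrays, and Ttn stays between -0.23 and 0.27 throughout.

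When the arrays of a set were combined into 1 value and the dye effect was removed, the size of the change in Dil minus WT differed among sets more for Pdlim5 than for the others. Pdlim5 had 0.19, 0.57, 1.14 and 0.80 in sets 1 to 4. Sorbs2 had 0.53, 0.47, 1.09 and 0.67, and Tln1 had 0.41, 0.25, 0.69 and 0.54. For these 3 genes sets 3 and 4 were higher than sets 1 and 2. Actn2 had 0.50, 0.47, 0.27 and 0.60, with its lowest value in set 3. Its values in sets 1 and 4 combine arrays that disagreed. The direct ratios there were 0.75 and 0.90, against -0.02 and -0.01 through Hyp. The small spread of Actn2 over sets therefore does not show that its arrays agree. Ttn had 0.18, -0.17, 0.12 and 0.05, and Tpm1 was below 0 in each set at -0.05, -0.38, -0.10 and -0.44. The value of set 2 rests on its Hyp arrays alone. The SD over the 4 sets was 0.40 for Pdlim5, 0.28 for Sorbs2, 0.19 for Tln1 and 0.14 for Actn2.

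The Dil arrays of sets 3 and 4 also had the widest ratios over all spots. The scaled median absolute deviation was 0.335 and 0.354 on the Dil minus WT arrays of sets 3 and 4 and 0.172 on that of set 1. With the arrays scaled to 1 spread, 116 features passed in Dil minus WT in place of 277, and 30 in Dil minus Hyp in place of 23. Sorbs2 and Tln1 were among them in both, with Dil minus WT changes of 0.58 and 0.39. Nothing is read from this, since the genes were chosen with these comparisons known. The part of the array spread in their ratios was not tested. Genes known as fibroblast markers moved by set in a like way. Their median in Dil minus WT was 0.35, with 9 of 11 measured markers above 0, and it was -0.10, 0.04, 0.54 and 0.45 in sets 1 to 4. One of them, Fstl1, a secreted glycoprotein, passed the test (0.70 ± 0.14, adjusted p = 0.0318, limma). For leukocyte markers the median was 0.30 (6 of 6 above 0), with 0.07, -0.01, 0.27 and 0.58 in sets 1 to 4. The 6 measured cardiomyocyte markers had a median of -0.18 with 2 above 0, and Hrc, which binds calcium inside the sarcoplasmic reticulum, fell (-1.08 ± 0.14, adjusted p = 0.00778). Because the files hold ratios, the summed level of these markers in each group is not known. Their part in the ratios of Sorbs2, Pdlim5 and Tln1 was not tested.

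Over the 11 arrays, with the dye effect removed, the ratios of Sorbs2 and Tln1 correlated at r = 0.92, those of Pdlim5 and Sorbs2 at 0.90 and those of Pdlim5 and Tln1 at 0.81. Outside these 3 genes the highest correlation was 0.66 between Actn2 and Ttn, and Ttn and Pdlim5 had the lowest, 0.07. These are descriptions over arrays that share mice and hold the same group differences. Of 7718 genes with a value on every array, those most like Sorbs2 were Glis3 (0.96), Amot (0.96) and Fhl1 (0.96). For Tln1 they were Anxa7 (0.98), Amot (0.96) and Gpatch4 (0.96), and for Pdlim5 they were Fat1 (0.98), Cdc26 (0.98) and Il17ra (0.96). Amot, which codes for angiomotin, thus stood near both Sorbs2 and Tln1. In Dil minus WT the fitted change was 1.03 ± 0.13 for Amot and 0.15 ± 0.07 for Glis3. Near genes were picked over arrays that hold the Dil difference, so a change of theirs in Dil is no separate finding. Those nearest to Actn2 were Dcbld2 (0.96), Aldoc (0.94) and Cpsf2 (0.93). Ttn was most like Ccnd1 (0.90), Pik3cd (0.89) and Dnajc18 (0.89), and Tpm1 was most like Naca (0.93), Ints6l (0.91) and Nfyb (0.91).

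The promoters of the 3 genes that moved together are shown with that of Ttn, which stayed near 0, so that their sequences can be set side by side. The windows are from RefSeq on GRCm38.p6, from 250 bases before to 50 after an annotated start, and each is read 5′ to 3′ on the strand of its gene. Sorbs2 has 3 and Pdlim5 has 2 annotated windows, of which the most upstream is shown. They lie at chr8:45507538-45507837 (plus strand) for Sorbs2, chr4:43562534-43562833 (minus strand) for Tln1, chr3:142395647-142395946 (minus strand) for Pdlim5 and chr2:76982498-76982797 (minus strand) for Ttn. Capitals mark matches on either strand to a motif searched for.
Sorbs2: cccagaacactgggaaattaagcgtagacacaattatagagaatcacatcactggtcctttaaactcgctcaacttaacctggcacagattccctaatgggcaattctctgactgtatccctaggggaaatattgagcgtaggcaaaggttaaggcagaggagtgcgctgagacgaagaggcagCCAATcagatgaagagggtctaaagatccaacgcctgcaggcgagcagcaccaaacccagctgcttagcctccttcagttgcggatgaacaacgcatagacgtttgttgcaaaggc
Tln1: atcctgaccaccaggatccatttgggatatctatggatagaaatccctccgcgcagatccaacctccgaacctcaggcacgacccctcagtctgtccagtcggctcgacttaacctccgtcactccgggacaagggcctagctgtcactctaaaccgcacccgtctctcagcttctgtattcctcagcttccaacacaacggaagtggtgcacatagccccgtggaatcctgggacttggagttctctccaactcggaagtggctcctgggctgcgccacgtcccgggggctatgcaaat
Pdlim5: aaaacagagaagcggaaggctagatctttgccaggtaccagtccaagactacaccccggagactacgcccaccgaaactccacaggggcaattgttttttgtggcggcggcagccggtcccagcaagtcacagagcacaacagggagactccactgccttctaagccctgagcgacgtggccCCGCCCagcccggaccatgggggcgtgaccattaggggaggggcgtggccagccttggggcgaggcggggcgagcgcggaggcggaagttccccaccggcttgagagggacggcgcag
Ttn: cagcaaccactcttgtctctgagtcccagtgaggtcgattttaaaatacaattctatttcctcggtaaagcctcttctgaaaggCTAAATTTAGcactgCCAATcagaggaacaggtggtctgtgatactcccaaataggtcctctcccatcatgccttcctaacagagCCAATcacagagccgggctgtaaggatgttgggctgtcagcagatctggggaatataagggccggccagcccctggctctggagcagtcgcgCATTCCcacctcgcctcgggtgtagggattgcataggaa

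Motifs searched were the CArG box, bound by serum response factor, the MEF2 site, the MCAT element (CATTCC), bound by TEAD factors, and the general promoter motifs known as the TATA box (TATAAA), the CCAAT box and, for binding of Sp1, the GC box (GGGCGG). A MEF2 site can itself hold TATAAA. The Ttn window held 1 MEF2 site, 1 CATTCC and 2 CCAAT. The Sorbs2 window held 1 CCAAT, the Pdlim5 window 1 GGGCGG, and the Tln1 window none of the letters searched. Of 32851 mouse promoter windows of the same length, 1.63% held a CArG box, 3.19% a MEF2 site, 14.7% CATTCC, 13.6% TATAAA, 37.4% CCAAT and 35.7% GGGCGG. No motif was thus shared by the windows of Sorbs2, Tln1 and Pdlim5 shown here.

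In sets 1, 3 and 4 the same 3 mice were compared on 3 arrays, so the direct Dil minus WT ratio can be set against the sum of Dil minus Hyp and Hyp minus WT. After the dye effect was removed, Sorbs2 had direct ratios of 0.56, 1.11 and 0.65 in sets 1, 3 and 4, against sums of 0.46, 1.04 and 0.70. Pdlim5 had 0.19, 1.15 and 0.75 directly, against 0.19, 1.14 and 0.92. Tln1 had 0.51, 0.71 and 0.62 directly, against 0.23, 0.64 and 0.38. For Sorbs2 and Pdlim5 the gaps were under the median gap of all genes in each set (0.131, 0.163 and 0.182). For Tln1 they were above it in sets 1 and 4.

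Actn2 did not close in this way. Its direct ratios were 0.75 in set 1 and 0.90 in set 4, against sums of -0.02 and -0.01. These gaps were larger than those of 99.1% and 99.0% of the genes, and both Actn2 spots showed them. In set 3 the direct ratio was 0.20, against a sum of 0.41. In set 2, which has no direct array here, the value through Hyp was 0.47. Actn2 thus lay above 0 by the direct route alone in sets 1 and 4, by both routes in set 3 and by the route through Hyp in set 2. The fitted value was 0.69 from the direct arrays and 0.46 from all arrays, and which arrays are in error was not tested.

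**Figure D3:**
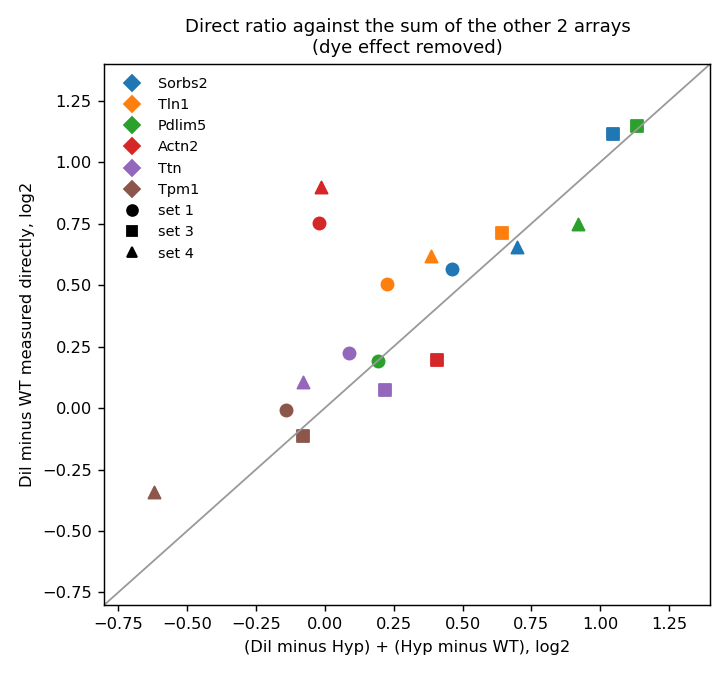
Direct Dil minus WT log2 ratio (vertical axis) against the sum of Dil minus Hyp and Hyp minus WT in the same set (horizontal axis), with the dye effect removed. Colours mark the 6 genes and symbols the sets, and the grey line is equality. Actn2 in sets 1 and 4 lies far above the line (0.75 and 0.90 against -0.02 and -0.01), and Sorbs2 and Pdlim5 lie close to it.

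Pdlim5, Actn2 and Tpm1 have 2 spots each. The Pdlim5 spots gave 0.63 ± 0.14 and 0.76 ± 0.19 in Dil minus WT and 0.60 ± 0.13 and 0.53 ± 0.18 in Dil minus Hyp, and their ratios correlated at r = 0.85 over the 11 arrays. They differed in their dye effect, which was 0.34 for spot 1 and -0.07 for spot 2. On the Dil minus Hyp arrays spot 1 read 0.83 and 1.43 with Dil in Cy5 (sets 2 and 4) and -0.13 and 0.33 with Dil in Cy3 (sets 1 and 3). Spot 2 read 0.03 and 1.09 with Dil in Cy5, and -0.09 and 1.06 with Dil in Cy3. Spot 1 thus followed the dye as well as the set, and spot 2 followed the set.

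The Actn2 spots gave 0.43 ± 0.21 and 0.48 ± 0.15 in Dil minus WT, with r = 0.84. The Tpm1 spots gave -0.20 ± 0.10 and -0.25 ± 0.14 in Dil minus WT and -0.17 ± 0.09 and -0.26 ± 0.13 in Hyp minus WT. Their ratios correlated at only r = 0.40, with gaps of up to 0.46 on an array, so the array-by-array pattern of Tpm1 is less certain than its mean. Whether these cDNA spots also bind transcripts of related genes was not tested.

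**Figure D4:**
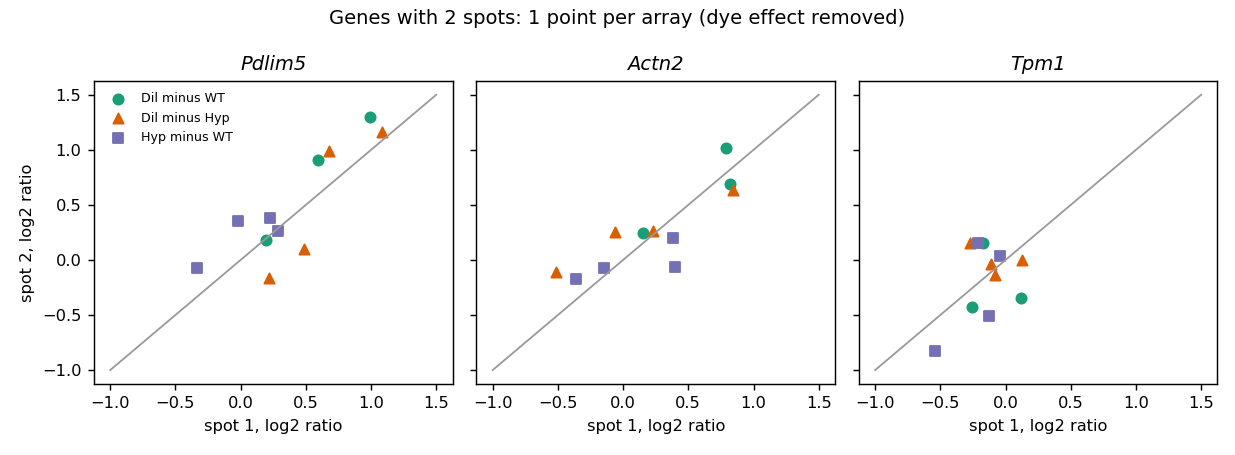
Log2 ratio of spot 2 (vertical axis) against spot 1 (horizontal axis) on each of the 11 arrays for the 3 genes with 2 spots, with the dye effect removed and the grey line at equality. The spots of Pdlim5 and Actn2 follow each other (r = 0.85 and 0.84), and those of Tpm1 do so less (r = 0.40).

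Of 193 other genes in 6 lists of structural genes, 99 were measured, and the arrays lack most contractile genes, with 3 of 27 measured in the list of thick filament and M-band genes. In Dil minus WT 3 of the 99 rose and 2 fell (adjusted p under 0.05, limma), beside 1.04% and 1.25% of all features. In Dil minus Hyp and in Hyp minus WT 0 of them passed. Wdr1, a cofactor of actin disassembly, rose by 0.43 ± 0.08 (adjusted p = 0.0242). Pdlim1, an alpha-actinin-binding protein of the same PDZ and LIM family as Pdlim5, rose by 0.32 ± 0.07 (adjusted p = 0.0388), and Myh10, a non-muscle myosin heavy chain, rose by 0.46 ± 0.11 (adjusted p = 0.0488). Dsc2, the desmosomal cadherin desmocollin-2, fell by 0.72 on the log2 scale (adjusted p = 0.00740). Tpm2, beta-tropomyosin, fell by 0.38 (adjusted p = 0.0361), and thus lay below 0 with Tpm1. The other measured tropomyosin genes, Tpm3 and Tpm4, lay above 0.

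By set, Dsc2 had -0.54, -0.73, -0.73 and -0.89 in sets 1 to 4 of Dil minus WT. Wdr1 had 0.47, 0.54, 0.29 and 0.49, and Pdlim1 had 0.35, 0.29, 0.18 and 0.44. Each of these 3 genes, Tpm2 (-0.37, -0.39, -0.22 and -0.55) and Myh10 had 1 sign in all 4 sets. Myh10 was uneven in size, with 0.07, 0.20, 0.73 and 0.71, higher in sets 3 and 4 as Pdlim5 was. With the set number as a block 0 of the 99 passed, with adjusted p from 0.0606 for Dsc2 to 0.227 for Myh10. Without set 3 none of the 5 passed (adjusted p from 0.217 to 0.378), without set 4 only Dsc2 did (0.0319), without set 2 only Dsc2 (0.0122) and without set 1 Dsc2 (0.0289) and Myh10 (0.0428).

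Apart from the calls, the lists differed in where their genes lay in Dil minus WT. Of 13 Z-disc genes 11 were above 0 with a median of 0.24, and of 24 genes of the general actin cytoskeleton 21 were above 0 with a median of 0.17. Of 34 genes of costameres and focal adhesions 26 were above 0 (median 0.10), and of 9 thin filament genes 7 (median 0.07). The intercalated disc went the other way, with 5 of 16 above 0 and a median of -0.05. In Hyp minus WT this list had 6 of 16 above 0 (median -0.06), and the general actin list had 20 of 24 (median 0.10). The lean of these lists was thus not particular to Dil. For the Z-disc list the Hyp minus WT count was 8 of 13 (median 0.03). Over the 99 genes 72 were above 0 in Dil minus WT, beside 51.2% of all features. Their Dil minus WT median was 0.04, 0.04, 0.04 and 0.19 in sets 1 to 4, so it was highest in set 4. For the costamere and focal adhesion list it was 0.02, 0.03, 0.04 and 0.21, and for the Z-disc list 0.11, 0.20, 0.11 and 0.44. Genes that share tissue and arrays are not independent, so these counts are a description.

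At the ends of the Z-disc list were Bag3, a co-chaperone of the Z-disc (0.51 ± 0.14), Pdlim2 (0.38 ± 0.09), Fhod3, a formin of the sarcomere (-0.30 ± 0.16), and the actin-binding protein Palld (-0.07 ± 0.07). The adhesion list ran from the integrin subunit Itgb5 (0.92 ± 0.24) and the adaptor Sorbs3 (0.77 ± 0.27), of the same family as Sorbs2, to Sgce (-0.32 ± 0.14) and Lims1 (-0.33 ± 0.12). Itgb5 was highest in sets 3 and 4 (0.19, 0.11, 0.94 and 2.01 in sets 1 to 4), and Sorbs3 was highest in set 4 (0.46, 0.75, 0.13 and 1.83). Neither passed (adjusted p = 0.0808 and 0.183).

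In the intercalated disc list Dsg2, desmoglein-2, stood next to Dsc2 at -0.62 ± 0.15 (adjusted p = 0.0594), with -0.31, -0.66, -0.65 and -0.87 in sets 1 to 4. Its upper end was held by Jup, plakoglobin (0.48 ± 0.44), with set values from -0.91 to 1.99, and Pkp4 (0.14 ± 0.11). Among thin filament genes Tnnt1, slow skeletal troponin T, was lowest (-0.61 ± 0.15, adjusted p = 0.0629), and Tmod3 (0.20 ± 0.07) and Capza1 (0.16 ± 0.07) were highest. The 3 measured genes of the thick filament and M-band list, Obsl1 (0.14 ± 0.27), Smyd1 (0.01 ± 0.08) and Fhl2 (-0.06 ± 0.10), stayed within 1 SE of 0. The general actin list ran from Msn, moesin (0.66 ± 0.16, adjusted p = 0.0533), and Tagln2 (0.50 ± 0.20) to Gsn, gelsolin (-0.20 ± 0.12), and Ezr, ezrin (-0.27 ± 0.08).

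**Figure D5:**
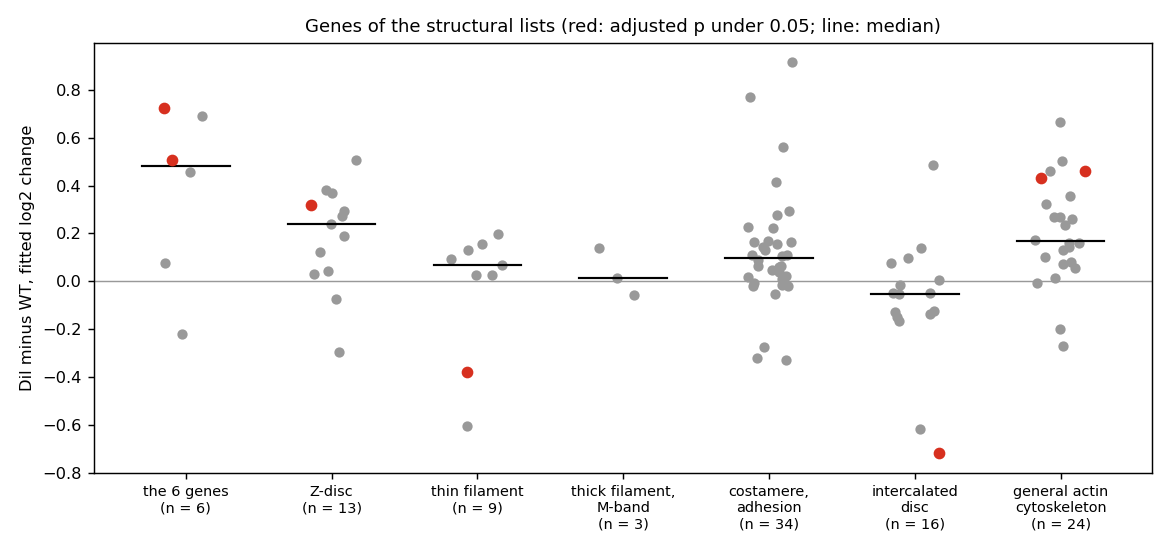
Fitted log2 change in Dil minus WT (vertical axis) of the 6 genes and of the genes of each structural list, 1 point per gene, with red for adjusted p under 0.05 and a line at the median. The medians run from 0.48 for the 6 genes and 0.24 for the Z-disc list to -0.05 for the intercalated disc list.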

How the data were processed

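The authors' deposited table held log2 ratios of 2 dyes (log base and direction not stated, so folds are too small if the logs are natural), with 17207 of 17664 spots measured on each array. No source used here gives the scanner, the background correction or the normalization. Spots were named through the platform annotation: 12563 had 1 symbol, 412 had several, 3953 were not listed, and 736 control spots were left out. The WT1 and Hyp1 array had displaced rows. Its 11520 spots lying 8 blocks away (r = 0.617 with the sum of the other set 1 arrays there, 0.0748 in place) and 2560 wrapped spots (0.584 and 0.108) were moved back, and 1280 spots were left empty, a step chosen after seeing the data.

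Spots of a gene were averaged, and features with values on at least 9 of 11 arrays were fitted by generalised least squares with a dye term and mice as random effects (shared variance ratio 0.302, which can understate the spread of variable genes, and residual degrees of freedom counted over arrays), then limma 3.58.1 in R 4.3.3 with Benjamini-Hochberg adjustment at 0.05. On simulated data this fit made more false calls than its threshold allows for, and the fit with the set block did not. The simulation gave all features the same variance ratio, so it does not cover genes that vary more among mice. Same-numbered arrays share mice, which is what pairs them, and their deviations correlated at a median of 0.241 within sets (-0.0765 to 0.502 over 6 pairs) and -0.217 between sets. Named genes were the 6 genes and each spot, list genes that passed, the 2 highest and 2 lowest of each list, the 3 nearest genes over arrays, and Agt and Nppb. The 6 genes and the lists were chosen with earlier results of these data known. Alternatives covered the displaced array, dye, spread, direct arrays, least squares without mice, the set block, spot summary, filters and each set left out. In the marker lists not described above, the Dil minus WT medians were -0.06 (endothelial), -0.14 (smooth muscle), 0.22 (erythrocyte) and -0.05 (adipocyte).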

Additional observations from a re-analysis of the deposited data

How the results depend on the processing

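Of the counts in Hyp minus WT, all stayed at 0 under every alternative run. In Dil minus WT the number of passing features was 277, and it was 159 with the WT1 and Hyp1 array left out, 116 with arrays scaled to the same spread, 7 from direct arrays only, 426 by ordinary least squares, 6 with the replicate block and 0 to 121 without 1 set. Of the 6 genes 2 passed there, with 0 from direct arrays only, 0 with the replicate block and 0 to 3 without 1 set, and 3, Pdlim5 being the third, without a dye term, by ordinary least squares and with a value on all arrays. Of the structural list genes 5 passed, with 2 with that array left out, 1 with arrays scaled, 0 from direct arrays only, 9 by ordinary least squares, 0 with the replicate block and 0 to 3 without 1 set. In Dil minus Hyp the 23 passing features became 41 with the array as deposited, 7 with it left out, 42 without a dye term, 0 from direct arrays only, 54 by ordinary least squares, 0 with the replicate block and 0 to 15 without 1 set. The 2 of the 6 genes passing there became 1 with the array as deposited, 0 with it left out, 0 from direct arrays only, 0 with the replicate block and 0 to 0 without 1 set, and 1 structural list gene passed by ordinary least squares in place of 0. Direct arrays only, and each set left out, use fewer arrays by construction, and ordinary least squares counts arrays that share mice as independent. For the other alternatives the cause was not tested. The block changed no other call. Though the 15 alternatives reuse the same arrays, in Dil minus WT each of the 6 genes kept its sign in all of them. Values near 0 did not: in Hyp minus WT the sign was kept in 10 of 15 alternatives by Tln1, 13 by Ttn and 14 each by Actn2 (-0.04 without set 1) and Sorbs2, and in Dil minus Hyp in 9 by Tpm1 and 14 by Ttn, none of them passing. Of the single values, Sorbs2 in Hyp minus WT was 0.25 with the array as deposited (0.05 realigned), and Actn2 in Dil minus WT was 0.69 from direct arrays only (0.46 from all). Leaving the wrapped rows empty, chosen after seeing the data, gave 257 and 20 features in place of 277 and 23. Spot brightness was not used, so no limit from signal over background can be given.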
